A study of Arabidopsis thaliana with 4 samples.

Results

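The loci described here are 153 loci of the Arabidopsis thaliana genome that the expression table lists by a transcript identifier and that were above 0 FPKM in every library. FPKM scales the fragments counted at a locus by its length in kilobases and by the mapped fragments of the library, in units of 1000000. They are 7.75% of the 1973 loci so listed, and the whole table has 34133. Their levels therefore helped to choose them: being above 0 in all 4 libraries is the rule, not a result. Of the 1973 loci, 1971 are annotated as pseudogenes in RefSeq's TAIR10.1 annotation, the class that holds most annotated transposable element genes of this species. The 2 protein-coding exceptions, MUG3 and MUG7, are both among the 153.

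The libraries were made from whole 10-day-old seedlings of the prp31, zop1 and sta1 mutants and of the wild type, all in the C24 accession. There was 1 library of oligo(dT)-selected RNA for each genotype. Seedlings were raised on agar plates of Murashige and Skoog medium at 23 °C, with 16 h of light a day. The labels do not say what kind of allele each mutant carries, how many plants were pooled or whether any line holds a transgene. With 1 library per genotype no difference has a replicate check and no p-value is given, and the values stand for these libraries alone. In whole seedlings, fewer cells that transcribe a locus and less RNA per cell cannot be told apart.

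Transposable elements are mobile DNA sequences. DNA transposons such as Mutator, hAT, En/Spm and PIF/Harbinger elements move by a transposase that cuts and pastes the element. Retrotransposons copy themselves through an RNA intermediate and carry long terminal repeats, as Copia and Gypsy elements do, or lack them, as LINE elements do. Plants keep most copies transcriptionally silent through DNA methylation, histone H3 lysine 9 methylation and small RNAs made by the RNA-directed DNA methylation pathway. Some elements are nevertheless transcribed in ordinary seedlings, and some transposase genes were domesticated, which means that the host retained them as genes while the ability to move was lost. PRP31 and STA1 are pre-mRNA splicing factors of the U4/U6.U5 snRNP particles. ZOP1 is a zinc finger protein that was linked both to splicing and to silencing, and the title of the series connects PRP31 with transcriptional silencing.

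The sequence around the annotated start of 4 loci is shown first, because silencing acts on such upstream regions. These 4 were picked, after their values were seen, from the loci higher in all 3 mutants by the second rule given below. AT2G15940, which is also on that list, is not shown. Each line runs from 250 bases before to 50 bases after the start, 5′ to 3′ on the strand of the locus, from the RefSeq TAIR10.1 genome of the Columbia accession, so C24 may differ. Capitals mark matches on either strand to 3 motifs. The TATA box was searched as TATAAA. The G-box, which many light and stress regulators bind, was searched as CACGTG. The core of a heat shock element was searched as GAANNTTC. No motif overlaps another in these windows. The windows lie at chr2:1548950-1549249 on the minus strand, chr5:9643868-9644167 on the minus strand, chr2:1490734-1491033 on the minus strand and chr4:4838599-4838898 on the plus strand, in the order printed.
AT2G04460: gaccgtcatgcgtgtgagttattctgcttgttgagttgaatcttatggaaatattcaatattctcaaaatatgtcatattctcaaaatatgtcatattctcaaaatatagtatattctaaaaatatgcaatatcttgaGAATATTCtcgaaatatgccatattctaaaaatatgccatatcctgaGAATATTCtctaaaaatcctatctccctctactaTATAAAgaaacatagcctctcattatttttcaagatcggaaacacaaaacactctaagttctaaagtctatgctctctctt
AT5G27345: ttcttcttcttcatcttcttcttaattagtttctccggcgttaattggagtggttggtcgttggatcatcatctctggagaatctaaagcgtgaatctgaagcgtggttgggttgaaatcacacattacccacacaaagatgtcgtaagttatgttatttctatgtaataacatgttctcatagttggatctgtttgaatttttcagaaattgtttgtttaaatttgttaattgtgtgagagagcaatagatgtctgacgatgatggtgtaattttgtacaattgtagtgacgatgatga
AT2G04290: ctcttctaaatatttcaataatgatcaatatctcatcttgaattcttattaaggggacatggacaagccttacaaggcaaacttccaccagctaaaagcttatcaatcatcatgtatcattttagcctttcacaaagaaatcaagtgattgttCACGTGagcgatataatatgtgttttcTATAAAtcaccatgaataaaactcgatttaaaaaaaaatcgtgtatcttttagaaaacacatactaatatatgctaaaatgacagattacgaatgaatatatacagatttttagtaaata
AT4G08020: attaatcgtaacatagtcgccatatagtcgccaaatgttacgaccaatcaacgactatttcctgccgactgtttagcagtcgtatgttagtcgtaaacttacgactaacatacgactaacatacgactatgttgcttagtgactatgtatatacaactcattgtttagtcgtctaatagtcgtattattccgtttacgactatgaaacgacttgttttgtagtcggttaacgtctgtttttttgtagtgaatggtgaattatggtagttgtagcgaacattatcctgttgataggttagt

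AT2G04460 had 2 matches to GAANNTTC and 1 TATAAA, AT2G04290 had 1 TATAAA and 1 CACGTG, and the windows of AT5G27345 and AT4G08020 held no match. Over the same window of all 1973 loci, 34.8% held TATAAA, 2.43% CACGTG and 10.5% GAANNTTC, and 0.811% held 2 or more matches to the last. Over the 153 loci the shares were 30.7%, 5.88% and 9.15%. These matches describe letters and are not evidence of a bound factor.

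The 153 loci spanned more than 3 orders of magnitude in level, and few of them carried most of the signal. Their summed level was 185.2 FPKM in prp31, 184.1 in zop1, 184 in sta1 and 181.6 in wild type, and the 12 loci with the highest mean held 60.1%, 59.7%, 59.4% and 62.8% of it in the same order. The sum over the set thus differed little between genotypes. By their mean over the 4 libraries, 5 loci were at 10 FPKM or more, 30 between 1 and 10, 49 between 0.1 and 1, 66 between 0.01 and 0.1, and 3 below that. The median locus was at 0.119 FPKM in prp31, 0.131 in zop1, 0.169 in sta1 and 0.0991 in wild type. Of all signal at the 1973 loci, the 153 held 97% in prp31, 95.9% in zop1, 96.5% in sta1 and 97.7% in wild type.

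**Figure D1:**
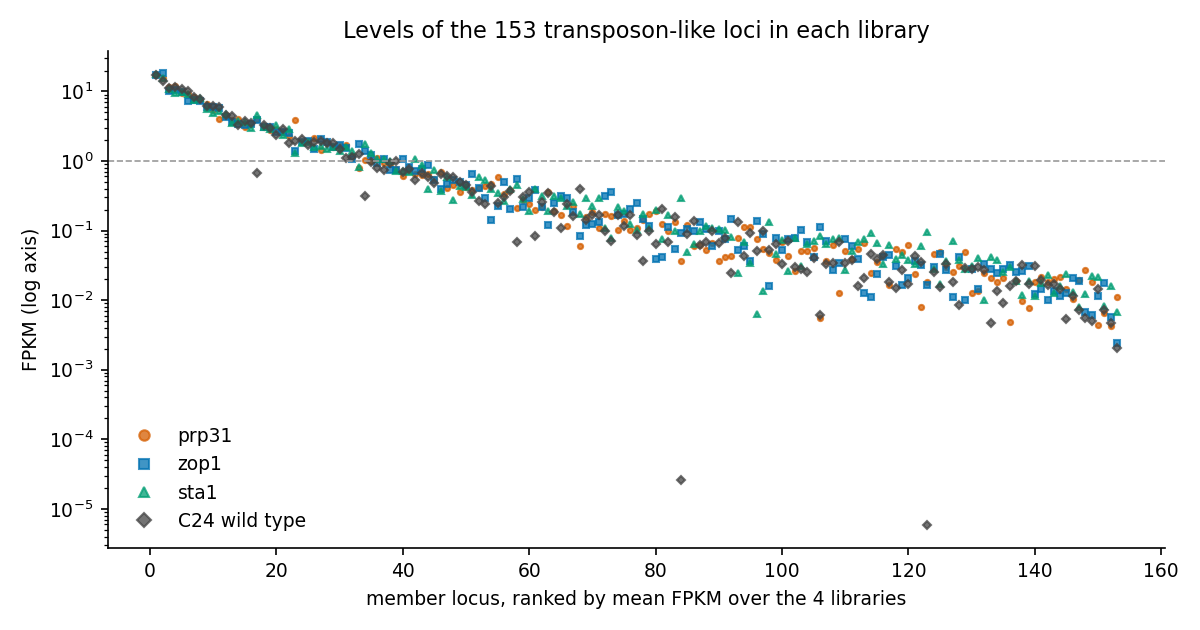
Level of each of the 153 loci in each library (FPKM, log axis), with loci ranked by their mean over the 4 libraries; the dashed line marks 1 FPKM. The 35 loci whose mean reached 1 FPKM lie at the left, where the 4 symbols lie close at most loci, with low wild type symbols at AT2G04460 and AT5G27345 and a high prp31 symbol at AT5G49743, and they spread apart towards the right; the 2 lowest wild type symbols stand for less than 1 read.

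Most of these loci rest on few reads. FPKM carry no read numbers, but low values of a locus step by what 1 read is worth, and these steps put the depth, in units of 1000000 reads, at no less than 54.1 for prp31, 40.2 for zop1, 43.6 for sta1 and 48.6 for wild type. The median locus had 42 implied reads in the 4 libraries together, 81 loci had fewer than 50 and 19 had 1000 or more. Another 3 loci, shorter than 500 nt, were given no read number. Read numbers are approximate: of 87 loci with at most 10 reads in some library, 54 gave whole numbers to within 0.1 read in each such library.

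The lowest loci inside the rule rest on few reads. AT5G27590 was at 0.0182 FPKM in prp31, 0.0163 in zop1, 0.0962 in sta1 and 5.82e-06 in wild type, and AT4G12200 at 0.0363, 0.0914, 0.295 and 2.57e-05 in the same order. Their wild type values are worth less than 1 read, and so is the zop1 value of AT5G27590. AT2G01029, the next lowest, was at 0.011 FPKM in prp31, 0.00246 in zop1, 0.00678 in sta1 and 0.00204 in wild type. Just outside, AT4G08013 was at 0.264 FPKM in prp31, 1.42 in zop1, 0.487 in sta1 and 0 in wild type. AT5G37175 was at 0.0363, 0.594, 0 and 0.687 FPKM in the same order, and AT3G43828 at 0.477, 0, 0.107 and 0.288.

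The rule leaves out any locus listed at 0 in a library, including those silent in wild type alone. Of the 1973 loci, 293 were above 0 in prp31, 304 in zop1, 291 in sta1 and 260 in wild type. Of all 34133 loci, 24392, 24272, 24341 and 24294 were above 0 in the same order. Those above 0 in 1 library alone numbered 46 for prp31, 63 for zop1, 41 for sta1 and 29 for wild type. The zop1 library had the most such loci and the fewest reads. Those at 0 in 1 library alone numbered 9 for prp31, 17 for zop1, 16 for sta1 and 21 for wild type. Neither kind of locus was counted over the whole table, so no share over all loci stands beside these numbers. In all, 1494 loci were at 0 everywhere. An exact 0 in this table can also be a failed estimate, since RBCS1A, a highly expressed gene of the leaf's carbon-fixing enzyme, was listed at 0 in every library.

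The most highly expressed loci belonged largely to named families, and each of these stayed within 2-fold of wild type in every mutant. Sadhu elements are short retrotransposons that encode no protein and whose silencing is known to vary between natural accessions. The annotation names 16 of them, of which 6 are listed by transcript identifier and 4 are among the 153. SADHU1-2 (AT1G30835), the locus with the highest mean of the 153, was at 17.2 FPKM in prp31, 17.3 in zop1, 17.8 in sta1 and 17.02 in wild type. SADHU1-3 (AT5G28626) was at 11.5, 10.03, 11.01 and 11.2 FPKM in the same order. Sadhu4-2 (AT1G03420), which overlaps the genes AT1G03410 and AT1G04183, was at 11.9, 10.4, 9.60 and 11.5 FPKM. Reads of overlapping genes were not told apart here, since the strand protocol is not given in the sources used here. SADHU5-1 (AT4G01525) was the Sadhu locus of the 4 with the widest spread, at 4.04 FPKM in prp31, 5.74 in zop1, 5.30 in sta1 and 6.05 in wild type. Its prp31 ratio to wild type was 0.668, with a 95% counting interval of 0.536 to 0.828 (exact binomial, implied reads). As 83.8% of this locus is covered by near-identical sequence elsewhere in the genome, the reads given to it depend on how the authors' processing split shared reads. The other 2 Sadhu loci listed by transcript identifier, SADHU1-1 and SADHU8-1, were at or below 0.145 FPKM in every library and at 0 in wild type. SADHU1-1 was at 0 FPKM in prp31, 0.145 in zop1 and 0.0267 in sta1, and SADHU8-1 at 0, 0 and 0.0330 in the same order.

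SADHU1-2 and SADHU1-3 aligned over 517 bases with 80.5% identity, when SADHU1-3 was read on the strand opposite to its annotation. Of the 100 aligned bases printed, 22 differed (capitals), far more than in the hAT-like pair printed further on. The stretches lie at chr1:10967387-10967486 on the plus strand and chr5:10632631-10632730 on the minus strand (TAIR10.1).
SADHU1-2: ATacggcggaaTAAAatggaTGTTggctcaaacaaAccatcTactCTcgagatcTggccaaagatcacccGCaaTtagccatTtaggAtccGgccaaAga
SADHU1-3: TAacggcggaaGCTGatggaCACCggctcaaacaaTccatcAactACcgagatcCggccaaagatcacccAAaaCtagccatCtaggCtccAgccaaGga

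MUSTANG genes (MUG) descend from Mutator-like transposases and are domesticated genes of flowering plants. Of 8 annotated MUG genes, 6 are listed by transcript identifier and all 6 are among the 153. MUG7 (AT3G05850) was at 9.64 FPKM in prp31, 9.90 in zop1, 9.67 in sta1 and 11.01 in wild type, so it was somewhat lower in each mutant, with ratios of 0.876 (0.81 to 0.949), 0.899 (0.826 to 0.98) and 0.879 (0.808 to 0.956). MUG4 (AT5G16505) was at 8.20, 7.48, 7.504 and 8.26 FPKM in the same order of libraries. MUG8 (AT5G34853) was at 7.51, 7.32, 8.12 and 7.82 FPKM. MUG5 (AT3G06940) was at 5.39 FPKM in prp31, 5.99 in zop1, 4.98 in sta1 and 6.23 in wild type. MUG6 and MUG3 lay between 3.03 and 3.51 FPKM and between 1.71 and 1.95 FPKM. No MUG locus met the 2-fold rule given below in any mutant. CYTOSLEEPER (AT1G15300), a relative of the hAT-derived gene DAYSLEEPER, was at 0.380 FPKM in prp31, 0.648 in zop1, 0.330 in sta1 and 0.363 in wild type.

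**Figure D2:**
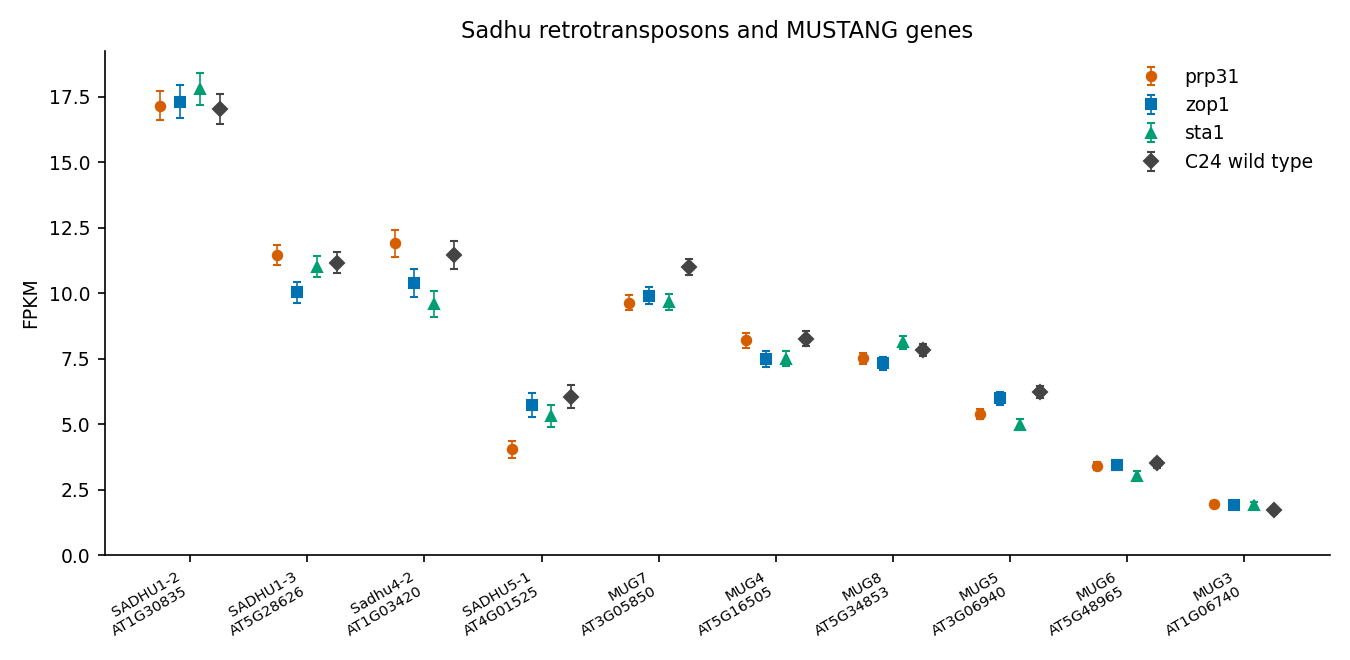
Level (FPKM, linear axis from 0) of the 4 Sadhu and 6 MUSTANG loci in prp31, zop1, sta1 and C24 wild type, 1 point per library; bars are the FPKM divided by the square root of the implied reads, on each side, and cover counting error only. SADHU1-2 lies between 17.02 and 17.8 FPKM in all libraries, and SADHU5-1 is lowest in prp31 at 4.04 FPKM.

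The other loci among the 12 highest bear no family name. AT3G44215, whose translation resembles a long terminal repeat polyprotein, was at 15.5 FPKM in prp31, 18.2 in zop1, 15.7 in sta1 and 14.2 in wild type, on 12533 implied reads in all, the best-covered locus of the set. Its zop1 ratio was 1.28, with a counting interval of 1.22 to 1.35. AT4G22450 was at 9.22, 7.33, 9.16 and 10.09 FPKM in the same order of libraries, and near-identical sequence elsewhere covers 93.7% of it. AT5G20880 lay between 5.60 and 6.64 FPKM and AT5G35344 between 4.24 and 4.74 FPKM.

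Differences from wild type were taken on the log2(FPKM + 1) scale at the 19240 loci whose mean over the libraries reached 1 FPKM, of which 35 are loci of this set. A locus met the 2-fold rule when the difference reached 1 in either direction. The 3 comparisons share the wild type library, so a low value there raises all 3. In prp31, 1 of the 35 loci was higher and 0 were lower, beside 0.515% higher and 0.426% lower over all loci tested. In zop1, 1 was higher and 0 were lower, beside 0.956% and 1.28%. In sta1, 2 were higher and 0 were lower, beside 0.790% and 1.19%. The median difference of the 35 came to 0.011 for prp31, -0.045 for zop1 and -0.066 for sta1, beside -0.021, -0.017 and -0.056 over all loci. The loci that met the rule were AT2G04460 in all 3 mutants and AT5G27345 in sta1.

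AT2G04460 had the largest difference from wild type of the 35 tested loci in each mutant, on the log2(FPKM + 1) scale. It is a pseudogene of 1462 nt at chr2:1547538-1548999 on the minus strand, with no near-identical sequence elsewhere in the genome and no similarity to an annotated transposon protein by the search used. It was at 4.05 FPKM in prp31, 3.89 in zop1, 4.52 in sta1 and 0.662 in wild type, on 276, 197, 248 and 41 implied reads. The 3 mutant libraries were close together and the wild type library stood apart. The log2 differences were 1.60 in prp31, 1.56 in zop1 and 1.73 in sta1. The FPKM ratios were 6.12 (4.34 to 8.61) in prp31, 5.87 (4.13 to 8.34) in zop1 and 6.82 (4.83 to 9.63) in sta1. Its upstream window, printed above, is the one with 2 copies of GAATATTC and a TATA box. The next gene to the left on the chromosome, NUDT6 (AT2G04450), a nudix hydrolase gene on the other strand 2002 bp away, was at 11.6 FPKM in prp31, 3.998 in zop1, 3.83 in sta1 and 14.7 in wild type. NUDT6 was thus lower in zop1 and sta1 than in wild type, while AT2G04460 was higher. The pseudogene on the other side, AT2G04470, was at 0 in the 3 mutants and 0.00754 FPKM in wild type.

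AT5G27345, at chr5:9641505-9643917 on the minus strand, encodes a translation similar to the transposase MUDRA of Mutator elements. It was at 1.05 FPKM in prp31, 1.40 in zop1, 1.78 in sta1 and 0.313 in wild type, on 125, 125, 171 and 34 implied reads. All mutant libraries were again above wild type, with sta1 highest. The log2 differences were 0.64 in prp31, 0.87 in zop1 and 1.08 in sta1, and the FPKM ratios 3.34 (2.25 to 4.98), 4.49 (3.02 to 6.70) and 5.68 (3.86 to 8.36). The difference on the log2 scale understates the ratio at this level because of the added 1 FPKM. Of the neighbouring genes within 10 kb, AT5G27330 was at 7.17 FPKM in prp31, 7.68 in zop1, 8.29 in sta1 and 6.74 in wild type, the same order with smaller steps. SFP1 was at 49.7, 53.3, 47.3 and 41.9 FPKM in the same order of libraries, also lowest in wild type, and AT5G27340 was at 0 in each library.

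Below a mean of 1 FPKM the 2-fold rule was not used, and a second rule was applied to loci above 0 in every library that had read numbers. It asked for an FPKM ratio of at least 2 (or at most 0.5) with the 95% counting interval of the ratio wholly above (or below) 1. Of 150 loci with read numbers, 9 were higher and 1 lower in prp31, beside 0.984% and 0.953% of the 22453 loci with reads. In zop1, 11 were higher and 1 lower, beside 2.05% and 2.29%. In sta1, 15 were higher and 2 lower, beside 1.78% and 2.53%. Most of the 150 are low loci, for which such ratios are more frequent. Of the 116 with a mean under 1 FPKM, 7, 9 and 13 were higher in prp31, zop1 and sta1, beside 3.66%, 6.34% and 6.40% of 3767 loci under that mean, and 1, 1 and 2 were lower, beside 3.96%, 4.86% and 6.37%. The counts of higher loci exceeded the lower ones in all 3 mutants, and all 3 counts are set against the same wild type library.

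**Figure D3:**
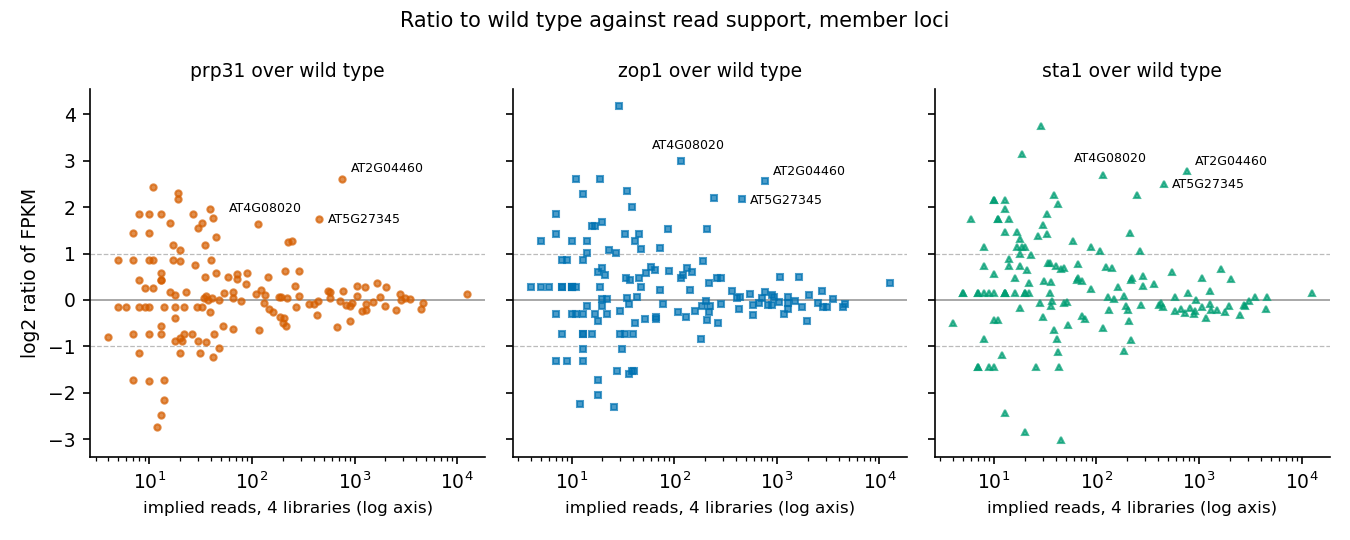
Ratio of FPKM in each mutant over C24 wild type (log2, vertical axis) against the implied reads of the locus in the 4 libraries together (log axis), 1 point per locus with at least 1 implied read in wild type; dashed lines mark 2-fold. The spread narrows as reads increase, no locus with 1000 or more reads passes 2-fold, and AT2G04460 and AT5G27345 lie above the band in every panel.

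The spread of the ratios followed the read support. Among the 19 loci with 1000 or more reads, the SD of the log2 ratio over loci came to 0.18 for prp31, 0.25 for zop1 and 0.29 for sta1, and 0 loci passed 2-fold. Among the 39 loci with 100 to under 1000 reads, 5, 5 and 8 passed 2-fold in prp31, zop1 and sta1. Among the 75 with 10 to under 100 reads, 25, 31 and 31 did, whatever their counting interval. Loci outside the set were not counted by reads in this way, so these counts cannot be compared with all loci of like support. Over the 116 low loci, 66 (prp31), 70 (zop1) and 80 (sta1) were above wild type, which is 56.9%, 60.3% and 69%, beside 48.1%, 55.2% and 51.3% of all low loci.

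The loci higher in all 3 mutants by the second rule were AT2G04460, AT5G27345, AT2G04290, AT4G08020 and AT2G15940. These and the other loci named for this rule were chosen after their values were seen. AT2G04290, at chr2:1485408-1490783 on the minus strand, resembles a reverse transcriptase, the enzyme by which retrotransposons copy RNA into DNA. It was at 0.198 FPKM in prp31, 0.380 in zop1, 0.397 in sta1 and 0.0825 in wild type, on 56, 79, 90 and 21 implied reads. It stood highest in zop1 and sta1, with prp31 between these and wild type. Its ratios to wild type were 2.41 (1.43 to 4.17) in prp31, 4.61 (2.78 to 7.75) in zop1 and 4.81 (2.95 to 8.09) in sta1.

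AT4G08020, at chr4:4838849-4841107 on the plus strand, was at 0.214 FPKM in prp31, 0.550 in zop1, 0.450 in sta1 and 0.0692 in wild type, on 24, 45, 40 and 7 implied reads. It overlaps the annotated locus AT4G02875, whose reads were not told apart from its own. Its ratios were 3.09 (1.29 to 8.46) in prp31, 7.95 (3.48 to 20.4) in zop1 and 6.50 (2.82 to 16.9) in sta1. Pseudogenes next to it on the same strand were also above wild type in some or all mutants. No read numbers are given for these neighbours. Their wild type values were below the 0.0692 FPKM that stands for 7 reads at AT4G08020, so they can rest on very few reads. AT4G08016 was at 0.381 FPKM in prp31, 0.512 in zop1, 0.496 in sta1 and 0.0235 in wild type, and AT4G08013, outside the set because it was at 0 in wild type, was given above. AT4G08010 was at 0.0237, 0.286, 0.0873 and 0.0262 FPKM in the same order of libraries, with prp31 close to wild type there. AT4G08000 was at 0, 0.0354, 0.0974 and 0.00974 FPKM, with prp31 at 0 and sta1 highest. The protein-coding gene at the edge of this stretch, AT4G07990, was at 16.9, 18.02, 19.02 and 17.6 FPKM.

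**Figure D4:**
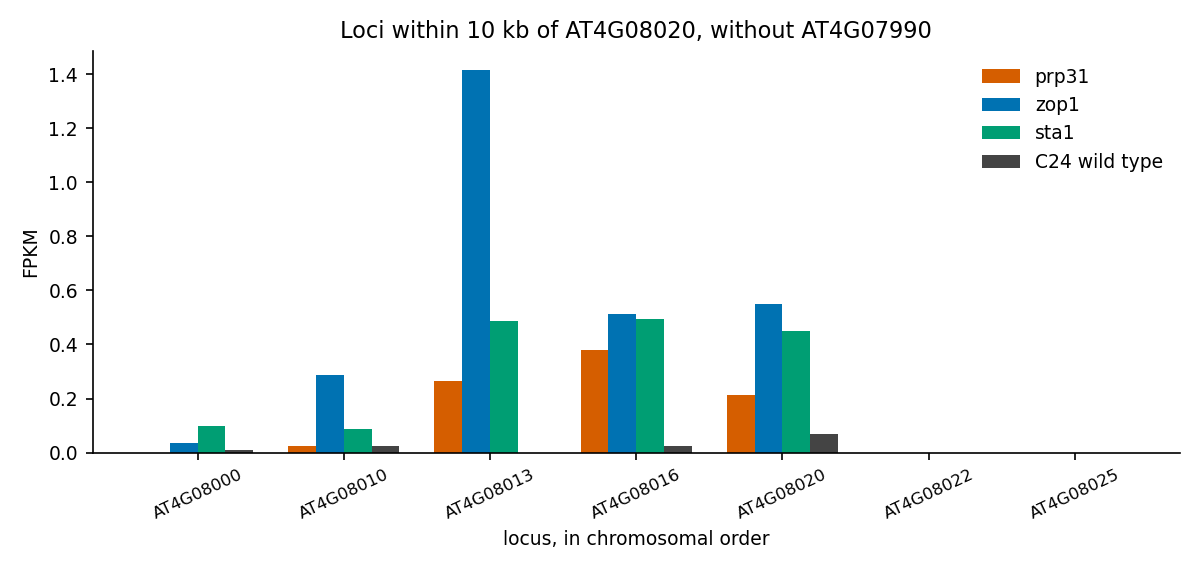
Level (FPKM, linear axis from 0) in prp31, zop1, sta1 and C24 wild type of the loci within 10 kb of AT4G08020, in chromosomal order; AT4G07990, at 16.9 to 19.02 FPKM, is left out. Wild type bars are at or below 0.0692 FPKM throughout, AT4G08013 reaches 1.42 FPKM in zop1, and AT4G08022 and AT4G08025 are at 0 in every library. Counting error is not drawn and is large at such low levels.

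AT2G15940 resembles hAT transposases and is wholly covered by near-identical sequence elsewhere. It was at 0.142 FPKM in prp31, 0.147 in zop1, 0.175 in sta1 and 0.0363 in wild type, on 13, 10, 13 and 3 implied reads. Its closest relative in the set is AT1G42110, at 0.645 FPKM in prp31, 0.725 in zop1, 1.09 in sta1 and 0.526 in wild type, which met the second rule in sta1 with a ratio of 2.07 (1.46 to 3.02). The 2 loci were identical at 1843 of 1881 aligned bases (98.0%). The stretches printed, at chr2:6943420-6943519 and chr1:15725804-15725903 on the plus strands (TAIR10.1), differ at 1 base (capital), so that reads from either locus can fit both and the split between them follows the authors' processing.
AT2G15940: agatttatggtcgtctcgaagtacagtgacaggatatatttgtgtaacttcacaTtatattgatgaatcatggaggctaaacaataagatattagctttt
AT1G42110: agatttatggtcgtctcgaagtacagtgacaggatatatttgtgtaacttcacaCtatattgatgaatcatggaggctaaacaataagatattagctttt

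**Figure D5:**
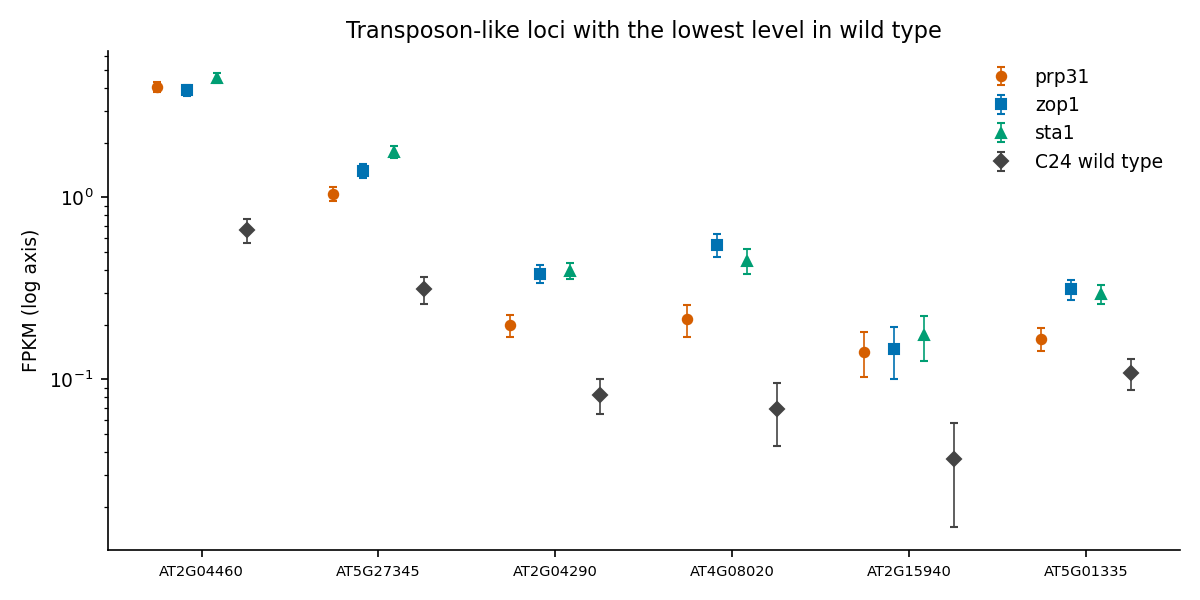
Level (FPKM, log axis) of the 5 loci higher in all 3 mutants by the second rule, and of AT5G01335, in prp31, zop1, sta1 and C24 wild type, 1 point per library; bars are the FPKM divided by the square root of the implied reads, on each side, and cover counting error only. Wild type is the lowest of the 4 points at each locus, from 0.662 FPKM at AT2G04460 to 0.0363 FPKM at AT2G15940.

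Other loci were higher in 1 or 2 of the mutants. AT5G01335, a reverse transcriptase-like locus, was at 0.168 FPKM in prp31, 0.314 in zop1, 0.296 in sta1 and 0.108 in wild type, and met the second rule in zop1 with a ratio of 2.90 (1.81 to 4.61) and in sta1 with 2.74 (1.72 to 4.37). AT5G27845, also reverse transcriptase-like, was the clearest locus high in prp31 alone, at 0.591 FPKM in prp31, 0.225 in zop1, 0.343 in sta1 and 0.247 in wild type. Its prp31 ratio to wild type was 2.39 (1.62 to 3.48), on 105 and 40 reads. AT5G27947, which resembles a long terminal repeat polyprotein, was at 0.00558 FPKM in prp31, 0.112 in zop1, 0.0824 in sta1 and 0.00618 in wild type. It had 15 reads in zop1, 12 in sta1 and 1 each in prp31 and wild type, so its ratios of 18.2 and 13.3 have intervals of 2.79 to 763 and 1.98 to 572. AT5G38705 met the rule in prp31 and sta1 on 15 reads each, against 4 in wild type. The remaining higher loci were AT3G42783 and AT4G04655 in prp31, and AT1G38360, AT3G31990, AT3G62725 and AT4G08078 in zop1. In sta1 they were AT1G36620, AT1G50810, AT2G13830, AT3G10100, AT4G04150 and AT4G12200. The last had 5 reads in sta1 and less than 1 in wild type, so no ratio is given.

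Lower loci were few. AT1G64250, a Mutator-like locus that overlaps AT1G64253, was at 0.450 FPKM in prp31, 0.535 in zop1, 0.272 in sta1 and 0.583 in wild type, with a sta1 ratio of 0.466 (0.288 to 0.763). AT4G08078 was at 0.0760, 0.136, 0.00624 and 0.0506 FPKM in the same order of libraries, on 15, 20, 1 and 9 implied reads. By the second rule it was lower in sta1, on that 1 read, and higher in zop1. Near-identical sequence elsewhere covers 93% of it. AT1G62890 was lower in prp31 on 1 read, against 7 in wild type, and AT1G35186 was lower in zop1 on 2 reads, against 12.

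Among the 35 loci tested, the remaining rises and falls were under 2-fold. AT1G24370, AT2G05935 and AT3G44215 were above wild type in all 3 mutants, after AT2G04460 and AT5G27345. AT2G05935 was at 2.29 FPKM in prp31, 2.53 in zop1, 2.85 in sta1 and 1.79 in wild type, with a sta1 ratio of 1.59 (1.38 to 1.84). AT1G24370 was at 1.70, 1.53, 1.57 and 1.10 FPKM in the same order. AT2G06270 in prp31, and AT5G04235 and AT3G21020 in sta1, were also among the 6 largest rises, with log2 differences of 0.21, 0.34 and 0.23. The locus lowest in all 3 mutants by its smallest difference was AT1G61510, which resembles the HARBI1 nuclease of PIF/Harbinger elements. It was at 3.86 FPKM in prp31, 3.66 in zop1, 3.47 in sta1 and 4.51 in wild type, with ratios of 0.855 (0.735 to 0.995), 0.810 (0.686 to 0.959) and 0.769 (0.652 to 0.909). MUG7, AT1G45120, AT4G22450 and AT5G64685 followed AT1G61510. Near-identical sequence elsewhere covers 80.4% of AT1G61510, which aligned with AT4G22450 at 98.2% identity over 1001 nt. Reads can thus fit both of these loci, and the split between them follows the authors' processing. The largest fall was SADHU5-1 in prp31, AT4G22450 in zop1 and AT5G49743 in sta1, with log2 differences of -0.48, -0.41 and -0.36. AT1G55100, AT2G14220, AT3G43863 and AT2G11140 were also among the 6 largest falls of a mutant, with differences no lower than -0.33 on the log2 scale.

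By the kind of transposon protein that the translated locus resembled, 17 loci were Mutator-like, 10 hAT-like, 2 En/Spm-like and 2 PIF/Harbinger-like, 15 resembled long terminal repeat polyproteins and 25 reverse transcriptases or other non-LTR proteins. The other 82 had no such similarity at the limit used. Apart from the Sadhu names, the annotation used here calls them pseudogenes only. The name transposon-like thus rests for them on that class, and their descent from transposons was not tested. The median of the locus means was 1.97 FPKM for the 2 PIF/Harbinger-like loci, 0.739 FPKM for Mutator-like loci, of which 8 of 17 were at 1 FPKM or more, and 0.588 FPKM for hAT-like loci. It was 0.180 FPKM for reverse transcriptase-like loci, 0.0534 FPKM for polyprotein loci and 0.0311 FPKM for the 2 En/Spm-like loci. Of 13 reverse transcriptase-like loci with at least 50 reads, 10 (prp31), 8 (zop1) and 9 (sta1) were above wild type, with median log2 ratios of 0.21, 0.14 and 0.46. Of 11 Mutator-like loci with that support, 4, 4 and 5 were above wild type, with medians of -0.05, -0.06 and -0.14. The counts were 4, 3 and 4 of 6 polyprotein loci, 3, 4 and 2 of 7 hAT-like loci, 0 of 1 PIF/Harbinger-like locus in each mutant, and 17, 17 and 15 of 31 loci with no similarity. Beside these, 44.6%, 48.1% and 41.8% of all 22980 loci above 0 in every library were above wild type, whatever their reads. These loci were grouped by their sequence, and related copies can share reads: 136 pairs, which involve 107 of the 153, aligned over at least 200 bases.

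Loci of the set lay in more gene-rich surroundings than other loci listed the same way. The median number of protein-coding genes within 250 kb was 89 for the 153, against 33 for the 1820 other loci and 31 for the 1494 at 0 everywhere. Within the set it was 118 for loci whose mean reached 1 FPKM and 85 for those below. The loci were spread over the chromosomes, with 32, 25, 30, 29 and 37 on chromosomes 1 to 5. Their median length was 2423 nt, against 1605 nt for the other loci, and a longer locus is more easily above 0. Near-identical sequence elsewhere was absent for 75 loci and covered at least 50% of 46. Another annotated gene overlapped 25 loci, 8 of them among the 35 at 1 FPKM or more.

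Between mutants, single loci of the set met the 2-fold rule, and more met the second rule. By the 2-fold rule, prp31 was higher than zop1 at 1 of 35 loci and lower at 0, beside 1.11% and 0.873% of all loci. It was higher than sta1 at 1 and lower at 0, beside 1.02% and 0.650%. In both cases the locus was AT5G49743, a pseudogene of 241 nt, at 3.86 FPKM in prp31, 1.41 in zop1, 1.30 in sta1 and 1.94 in wild type, too short for a read number. Between zop1 and sta1 the counts were 0 and 0, beside 0.722% and 0.634%. By the second rule, prp31 was higher than zop1 at 4 of the 150 loci with read numbers and lower at 4, beside 2.19% and 2% of all loci with reads. It was higher than sta1 at 1 and lower at 4, beside 2% and 1.57%. The zop1 library was higher than sta1 at 5 and lower at 6, beside 1.68% and 1.28%. Among the low loci described above, AT4G08020 had a prp31 level of 0.389 times that of zop1 (0.231 to 0.664) and 0.476 times that of sta1 (0.279 to 0.822), while the ratio of zop1 over sta1 was 1.22 (0.779 to 1.92). AT5G27845 was 2.63 times as high in prp31 as in zop1 (1.72 to 4.04) and 1.72 times as high as in sta1 (1.22 to 2.48).

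Genes with a known part in silencing transposons, or in countering it, were read from the same libraries. Whether they act on the 153 loci was not tested. Of a list of 40 silencing genes, which holds DNA methyltransferases, histone methyltransferases, small RNA factors and chromatin remodellers, 39 reached a mean of 1 FPKM. The gene below that mean, AGO9, was at 0.287 FPKM in prp31, 0.909 in zop1, 0.481 in sta1 and 0.217 in wild type. It was thus highest in zop1 and lowest in wild type, and the 2-fold rule was not applied to it. Among the 39, 0 were higher and 0 lower by the 2-fold rule in prp31 and in zop1, with median differences of -0.07 in both. Over all loci tested, 0.515% were higher and 0.426% lower in prp31, and 0.956% and 1.28% in zop1, with medians of -0.021 and -0.017. At such shares a count of 0 among 39 genes says little. The shares in sta1 were 0.790% and 1.19% over all loci, with a median of -0.056. Among the 39, 0 were higher there and 1 was lower, with a median of -0.14. That gene was ROS1, a DNA glycosylase that removes DNA methylation and so counters silencing, at 6.92 FPKM in prp31, 9.38 in zop1, 3.95 in sta1 and 11.7 in wild type. DDM1, the chromatin remodeller needed to silence most transposons, was at 4.23, 4.83, 3.91 and 4.22 FPKM, and MET1, the maintenance DNA methyltransferase, at 12.98, 15.3, 14.5 and 12.9 FPKM. A further list of 7 elements was chosen by identifier as silencing reporters. Each was at 0 or below 0.01 FPKM in every library, and none is among the 153. Whether they would be transcribed under these growth conditions without silencing was not tested, so their values do not show whether silencing held.

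The label and tissue checks bear on all of these values. PRP31 was at 16.4 FPKM in prp31 and 23.2 in wild type, ZOP1 at 7.99 in zop1 and 14.1 in wild type, and STA1 at 18.9 in sta1 and 14.1 in wild type. Without the kind of allele, a transcript level does not check a label. The leaf gene PSBO1 was between 2949 and 3808 FPKM and the root hair genes EXPA7 and COBL9 between 4.71 and 6.999 FPKM, while the pollen genes VGD1 and PPME1 were at or below 0.101 FPKM. The seed storage genes CRA1 and CRC were at 1.63 and 3.02 FPKM in prp31, 0.643 and 0.0900 in zop1, 1.48 and 0.229 in sta1, and 6.14 and 5.37 in wild type. They were thus highest in wild type, where the loci higher in all 3 mutants by the second rule were lowest. Other loci of the set, such as MUG7 and AT1G61510, were highest in wild type as well. The part of the difference in seed storage genes in the results was not tested.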

How the data were processed

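The authors deposited 1 table of FPKM values with 1 column per library, all 4 of which were used (0 other columns). TopHat2 2.0.12, Cufflinks 2.0.1, Cuffdiff and Bowtie are named in the submitters' processing notes, with TAIR10 as the build. Their settings, the treatment of reads with several matches and the strand protocol were not given in the sources used here. Reads of C24 plants were thus set against the genome of another accession.

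Genotypes came from the genotype labels of the samples, and columns were matched to samples by their titles. Values were compared as log2(FPKM + 1) where the mean over the libraries reached 1 FPKM (pandas 2.3.3, numpy 2.4.6). Implied reads took the effective length as 203 nt below the transcript length, a value fitted on low values of 13892 single-transcript loci. They are lower bounds, because a factor common to the libraries would not show. Ratios of FPKM have 95% exact binomial intervals on these reads (scipy 1.17.1), which cover counting error only. Intervals were not adjusted for the number of loci. The steps were tested on simulated data.

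All 1973 loci were matched to the TAIR10.1 RefSeq annotation by identifier. Near-identical sequence means a BLAST+ 2.17.0 nucleotide match elsewhere of at least 95% identity over at least 100 bases. Similarity to transposon proteins means a translated match to annotated coding sequences with an e-value of at most 1e-10.

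Loci named are the 12 with the highest mean, the 6 largest rises and falls in each mutant, those that met the 2-fold rule, the 5 highest each way by the smallest of the 3 differences, the 3 just inside and the 3 just outside the member rule, family members and those said to be chosen afterwards. The members, lists and rules were chosen with earlier results of these data known.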

Additional observations from a re-analysis of the deposited data

How the results depend on the processing

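Alternatives were a pseudocount of 0.1 FPKM, no filter on low values, a mean of at least 0.1 FPKM, median-of-ratios scaling and 2 other member rules. With the pseudocount of 0.1 FPKM, the loci of the set that met the 2-fold rule became 2 higher in prp31 and 2 higher in zop1, with 1 lower in prp31 than in zop1 and 1 higher in zop1 than in sta1. Over all loci the counts became 289 higher and 389 lower in zop1, against 184 and 247 with 1 FPKM, and 232 higher and 387 lower in sta1, against 152 and 229. A smaller added value enlarges a log2 difference, so such counts cannot fall. Asking for at least 0.1 FPKM in every library left 71 loci in the set. The other counts stayed within 1.5 times the reported count. The median differences were near 0 and their sign was not stable: with no filter they were 0.0092 in prp31, 0.0074 in zop1 and 0.013 in sta1, and with a mean of at least 0.1 FPKM 0.019, 0.016 and 0.011. No difference that met the 2-fold rule changed sign. Under median-of-ratios scaling 2 differences near 0 did, SADHU1-3 (AT5G28626) in sta1 at 0.0341 and MUG4 (AT5G16505) in prp31 at 0.015. At AT2G04460 the differences with 0.1 FPKM were 2.45 in prp31, 2.39 in zop1 and 2.60 in sta1, and at AT5G27345 they were 1.47, 1.86 and 2.19. No paired analysis was possible because each genotype has 1 library, and for the same reason no replicate could be left out. Depth limits the low loci: 81 of them had fewer than 50 reads in all.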
